A study of Mus musculus with 15 samples.

Results

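Expressed transcript clusters without a gene symbol were examined in erythroid cells of mouse fetal liver that lack the repressor KLF3, carry a gene trap in Klf8, or both. A transcript cluster is the set of probes that an Affymetrix gene array reports as 1 value. Of 35556 clusters, 12146 carried no gene symbol in the platform annotation, and 4744 of these (39.1%) had a mean log2 signal of 6.3 or more over all 15 arrays. These 4744 clusters are called unnamed clusters here and are identified by their cluster ID. They were chosen by their mean signal over all arrays, so levels are given as a description. The rule names no genotype, but a cluster that is low in some groups can reach 6.3 only through the groups where it is high, so counts of calls describe the clusters that passed the rule and are not read as support for a direction. The 3 clusters just inside the limit were 10519477 and 10345046, both with a mean of 6.3, and 10343486 with a mean of 6.302. Just outside lay 10344184 and 10376986, both at 6.299, and 10342608 at 6.297.

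Krüppel-like factors bind CACCC-type and GC-rich elements through zinc fingers, and KLF3 represses transcription with the corepressor CtBP. KLF1, an erythroid activator, drives Klf3, and KLF3 in turn represses Klf8, a related repressor gene on the X chromosome. Clusters without a symbol on such an array can belong to predicted or non-coding transcripts, to repeated sequence, to mitochondrial transcripts, or to control probe sets.

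RNA came from TER119+ cells, which are maturing red cells, isolated with magnetic beads from livers of FVB/NJ embryos at E13.5. There were 4 arrays labelled wild type, 4 labelled Klf8gt/gt (Klf8-trap), 3 labelled Klf3-/- (Klf3-null) and 4 labelled Klf3-/- Klf8gt/gt (doubly mutant). The labels name no further allele or treatment and no restriction of either allele to a cell type. Genotypes are used as labelled throughout. The labels do not say that each array is a separate embryo or which arrays share a litter. A p-value here therefore sets a group difference against the spread among these samples, part of which may be technical.

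The labels could be checked only in part from the targeted genes. Klf3 signal was 10.27 ± 0.17 (SD, n = 4) in wild-type arrays and higher, at 11.32 ± 0.14 (n = 3), in arrays labelled Klf3-null. Where the Klf3 probes lie relative to the deleted part is not known here, so this signal checks nothing about the label. Klf8 signal was 5.36 ± 0.18 in wild-type and 5.39 ± 0.09 (n = 4) in Klf8-trap arrays, both under every array median, and 8.71 ± 0.26 in Klf3-null arrays. In doubly mutant arrays it was 7.29 ± 0.55, which differed from Klf3-null arrays by -1.42 ± 0.23 and did not pass (adjusted p = 0.0788, limma). Array medians lay between 6.28 and 6.41. Xist and the Y-linked genes split the arrays into 9 male and 6 female ones, with all 4 wild-type arrays male and 2 female arrays in each other group. The 2 Klf8-trap and 2 doubly mutant arrays that were male also bear the gt/gt label. Klf8 is X-linked and males carry a single X, so that label does not give their number of alleles. Erythroid markers averaged 12.65 ± 0.09 in wild-type and 12.35 ± 0.22 in doubly mutant arrays (10 of 13 listed genes measured). Hepatocyte markers averaged 12.29 ± 0.15 in wild-type arrays (9 of 10 measured). Macrophage markers averaged 9.42 ± 0.14 in wild-type and 8.38 ± 0.63 (range 7.60 to 9.13) in doubly mutant arrays, and 5 of the 15 were called lower. Stromal markers averaged 8.83 ± 0.08 in wild-type and 9.06 ± 0.16 in doubly mutant arrays, where 2 of 8 were called higher than in wild-type and 1 higher than in Klf8-trap arrays. The part of stromal signal in the results was not tested. Lymphoid and mast cell markers averaged 5.24 in wild-type arrays, under the array medians. Earlier results of these data placed doubly mutant array 1 and Klf8-trap array 1 apart from their groups. The former had the lowest macrophage mean of its group (7.60). Both had the lowest megakaryocyte (9.11 and 9.07), hepatocyte (11.5 and 12.4) and endothelial (7.88 and 7.9) means of their groups, in the same order.

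The unnamed clusters fell into 2 sets by their IDs. The lowest ID that carries a gene symbol was 10344624, and 2947 of the 4744 unnamed clusters (62.1%) had IDs below it. This lower-ID set comes from 6617 clusters among which no cluster had a symbol, and 44.5% of them reached 6.3. The other 1797 (the higher-ID set, 37.9%) lie among the clusters with symbols, and 32.5% of symbol-less clusters there reached 6.3. Of the clusters with a symbol, 56% reached the limit. The platform table used here marks no control probe sets, so none could be left out. The lower-ID set, where no cluster has a symbol, may consist partly or wholly of control probe sets, which is not known here. Its calls are therefore not read as those of unnamed genes. The calls against wild type and against Klf8-trap arrays are given for both sets.

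**Figure D1:**
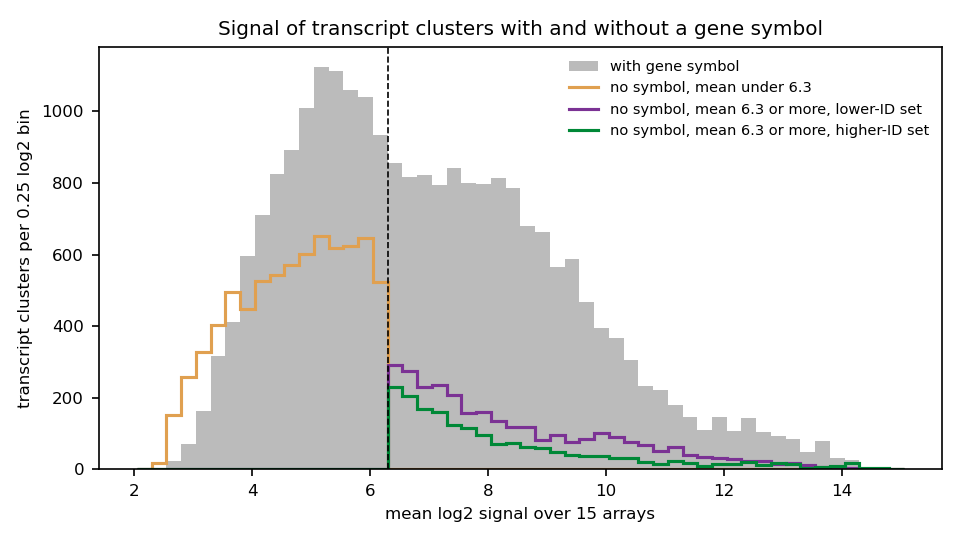
The plot shows the number of transcript clusters per bin of 0.25 on the log2 scale (vertical axis) against the mean log2 signal over 15 arrays (horizontal axis), with grey for clusters with a gene symbol, orange for symbol-less clusters under 6.3, purple for the lower-ID set and green for the higher-ID set. The dashed line marks 6.3, above which the 2947 and 1797 unnamed clusters lie, thinning out toward a highest mean of 14.70.

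The unnamed clusters spanned nearly the same range of signal as clusters with a symbol. Their median was 7.78, against 8.30 for the 13118 symbol clusters that also reached 6.3, and the highest unnamed mean was 14.70 against 14.85. A mean of 10 or more was reached by 886 unnamed clusters (18.7%) (604 in the lower-ID set and 282 in the higher-ID set) and by 19.1% of the symbol clusters, a mean of 12 or more by 259 unnamed clusters, and 14 or more by 28, of which 23 were in the higher-ID set. The lower-ID set had a higher median (7.92) than the higher-ID set (7.57).

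Arrays of the same genotype differed more in the lower-ID set than elsewhere. The median residual SD, the spread around the group means, was 0.30 in the lower-ID set, 0.182 in the higher-ID set and 0.166 in symbol clusters. The same order of the lower-ID set and symbol clusters was seen within bands of signal. Between 6.3 and 7 the medians were 0.373 and 0.176, and at 10 or more they were 0.201 and 0.123. A mean over all arrays of 6.3 or more did not require signal in each genotype, and 460 unnamed clusters (9.7%) had at least 1 group mean under 6.3, 320 of them in the lower-ID set and 140 in the higher-ID set.

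Some unnamed clusters are not separate measurements. Among the 4744 there were 4696 distinct rows of values, because 73 clusters shared all 15 values with at least 1 other, in 25 sets of up to 7 clusters. None of the 73 was in the lower-ID set, and none was identical to a cluster with a symbol. The largest set, with 7 clusters including 10362111, had a mean of 6.92, and 2 sets of 6 contained 10582556 (mean 7.43) and 10417599 (mean 7.95).

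The strongest unnamed signals were nearly constant over the arrays. They lay near the top of the range, since the highest value of any cluster was 14.81 to 14.89 by array. Near-constant signal there need not mean a constant amount of RNA. Cluster 10608690 had the highest mean and lay between 14.63 and 14.76 on every array. Clusters 10608691, 10598025, 10598020 and 10598036 followed, at 14.67, 14.64, 14.46 and 14.32. Cluster 10598036 had the widest spread of these, from 14.15 on Klf3-null array 3 to 14.47 on doubly mutant array 3. Over the 15 arrays its signal was most like that of COX2, the mitochondrial gene for a subunit of cytochrome c oxidase (Pearson r 0.99, and 0.98 for deviations from the group means). ND3, a mitochondrial subunit of complex I, followed at r 0.94. These likenesses, like those below, were searched over 12312 clusters with exactly 1 symbol and are descriptions without a test, since all clusters share the same 15 arrays.

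A small group of unnamed clusters was higher in Klf3-null arrays. Between Klf3-null and wild-type arrays 11 of 4744 unnamed clusters (0.232%) passed an adjusted p of 0.05, 9 higher and 2 lower. The background over all 35556 clusters was 0.309% (0.276% higher and 0.0337% lower), and 0.686% of the 13118 symbol clusters with a mean of 6.3 or more passed (0.625% higher and 0.061% lower), so the unnamed clusters were called no more often than clusters in general. The 9 higher clusters rose by 0.71 to 1.85 on the log2 scale with a median of 1.17, against a median difference of -0.01 over all unnamed clusters and over all clusters. The higher-ID set held 7 of the 9. All group means reached 6.3 in 6 of the 9, and the other 3 passed the signal limit through the groups where they were high. P-values are from limma with Benjamini-Hochberg adjustment over all clusters unless stated otherwise, a difference is on the log2 scale with its standard error, and a fold is given where both group means reached the lowest array median. In bulk samples such as these, fewer cells of a type and less RNA per cell cannot be told apart.

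Cluster 10472860 gave log2 signals of 6.95, 6.90, 7.08 and 7.37 in wild-type arrays, 6.83, 8.0, 7.67 and 7.98 in Klf8-trap arrays, 8.90, 8.83 and 8.50 in Klf3-null arrays, and 9.36, 8.78, 8.81 and 8.59 in doubly mutant arrays. Every array that lacked KLF3 lay above every other array. The Klf3-null difference was 1.67 ± 0.25, or 3.18-fold (adjusted p = 0.00847, limma), and that of the doubly mutant arrays 1.81 ± 0.23 (adjusted p = 0.000922). Both comparisons share the 4 wild-type arrays. The symbol clusters most like it were Nab1, a corepressor of EGR factors (r 0.98, 0.93 for deviations), Tspan14, a tetraspanin (0.97), and Tfcp2, a transcription factor (0.97).

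Cluster 10424437 gave 6.59, 6.69, 6.36 and 6.48 in wild-type arrays, 6.69, 6.08, 5.87 and 6.4 in Klf8-trap arrays, 7.56, 8.10 and 7.67 in Klf3-null arrays, and 8.05, 7.93, 7.71 and 7.66 in doubly mutant arrays. All 7 arrays without KLF3 were again above the other 8. It rose by 1.25 ± 0.18, or 2.38-fold, in Klf3-null arrays (adjusted p = 0.00595, limma) and by 1.31 ± 0.17 in doubly mutant arrays (adjusted p = 0.000922). Its nearest symbol cluster was Spi1, which encodes the myeloid transcription factor PU.1 (r 0.97, 0.70 for deviations). Its Klf8-trap mean, 6.26, lay under the signal limit of 6.3.

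Cluster 10510814 gave 8.48, 8.53, 8.50 and 8.35 in wild-type arrays, 8.52, 8.33, 8.30 and 8.46 in Klf8-trap arrays, 9.71, 9.83 and 9.38 in Klf3-null arrays, and 10.13, 9.44, 9.44 and 9.11 in doubly mutant arrays. The 8 arrays with KLF3 fell in a narrow band, and the other 7 lay above it. It rose by 1.17 ± 0.18, or 2.26-fold (adjusted p = 0.00965, limma), and by 1.06 ± 0.17 in doubly mutant arrays (adjusted p = 0.0044). No other named member of this group had as many close symbol clusters, with 46 at r of 0.95 or more, led by Nde1, which acts in mitotic spindle organisation, and Brca2, a DNA repair gene (both 0.98).

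Cluster 10340919, in the lower-ID set, gave 5.12, 5.53, 6.07 and 4.97 in wild-type arrays, 5.90, 5.6, 5.58 and 5.56 in Klf8-trap arrays, 7.58, 7.21 and 7.01 in Klf3-null arrays, and 7.93, 7.34, 7.39 and 6.80 in doubly mutant arrays. Arrays without KLF3 were above the array medians and all others below, so no fold is given. Its group means were 5.42, 5.66, 7.27 and 7.37 in wild-type, Klf8-trap, Klf3-null and doubly mutant arrays, so it reached the signal limit only through the arrays without KLF3, and its place among the largest rises depends on that. The differences from wild type were 1.85 ± 0.27 (adjusted p = 0.00553, limma) and 1.95 ± 0.25 (adjusted p = 0.000833). Its nearest symbol cluster was B3gnt3, a glycosyltransferase gene (r 0.97).

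Clusters 10350742 and 10510505 completed the 6 largest rises. Cluster 10350742 gave 9.53, 10.23, 10.24 and 10.09 in wild-type and 11.61, 11.60 and 11.17 in Klf3-null arrays, a difference of 1.43 ± 0.27 (2.70-fold, adjusted p = 0.039, limma). Its doubly mutant values were 12.02, 11.70, 11.69 and 10.72 (difference 1.5 ± 0.25, adjusted p = 0.00583). Neither mutant group overlapped the wild-type arrays. Cluster 10510505 gave 8.25, 7.80, 8.30 and 8.64 in wild-type and 9.28, 9.24 and 9.22 in Klf3-null arrays (difference 1.0 ± 0.19, 2.0-fold, adjusted p = 0.0469). Its doubly mutant values were 9.60, 9.40, 9.65 and 8.90 (difference 1.14 ± 0.18, adjusted p = 0.00409). It was most like Tfcp2 and Nab1 (both r 0.94), which are both also among the 3 nearest to cluster 10472860.

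**Figure D2:**
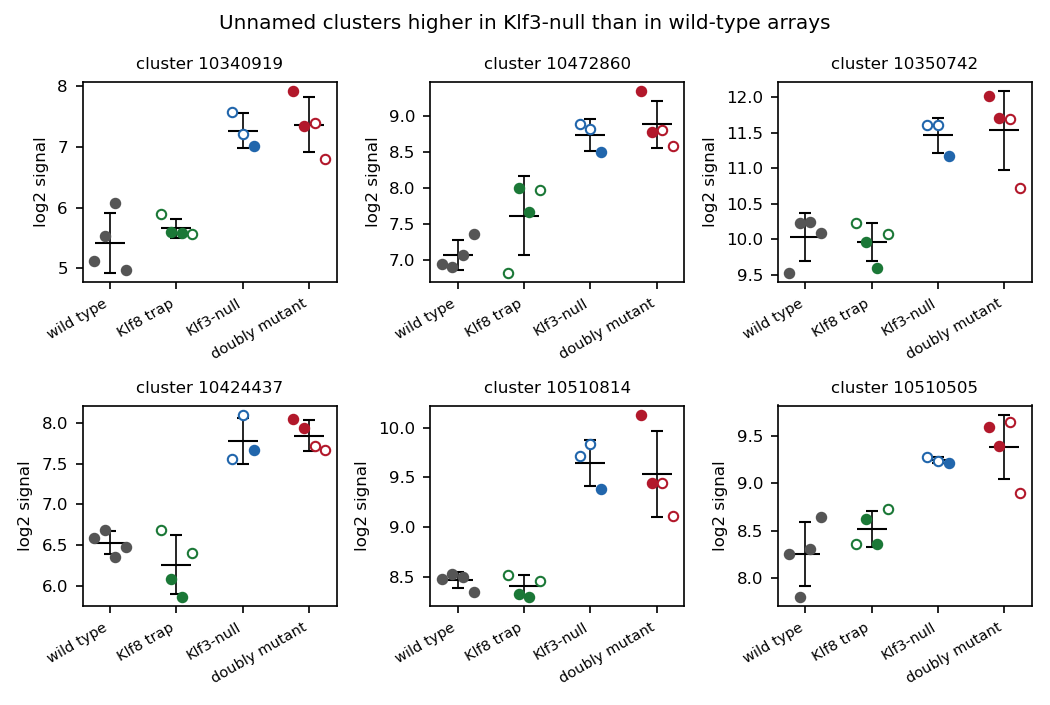
Each panel plots the log2 signal (vertical axis) of 1 unnamed cluster in the 4 genotypes (horizontal axis), with a point for each array, filled for male and open for female, and a bar for the mean ± SD. In all 6 panels the Klf3-null points lie above the wild-type points, for example 8.50 to 8.90 against 6.90 to 7.37 for cluster 10472860.

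The 2 clusters that fell behaved differently in the doubly mutant arrays. Cluster 10339753, in the lower-ID set, gave 7.89, 8.90, 8.83 and 8.35 in wild-type arrays, 8.47, 9.40, 9.36 and 8.88 in Klf8-trap arrays, 7.19, 6.80 and 5.94 in Klf3-null arrays, and 9.22, 8.75, 9.28 and 8.97 in doubly mutant arrays. Only the Klf3-null arrays were low. They were 3.6-fold below wild type (difference -1.85 ± 0.31, adjusted p = 0.0189, limma), and doubly mutant arrays exceeded Klf3-null arrays 5.32-fold (difference 2.41 ± 0.31, adjusted p = 0.0225). Cluster 10487453 gave 7.50, 7.68, 7.73 and 7.58 in wild-type, 7.21, 6.79 and 7.17 in Klf3-null and 6.83, 6.79, 6.92 and 6.95 in doubly mutant arrays. Both groups without KLF3 lay below wild type, with differences of -0.56 ± 0.11 (1.48-fold lower, adjusted p = 0.046) and -0.75 ± 0.10 (adjusted p = 0.00121). It was most like Tuba4a, an alpha-tubulin gene (r 0.93), but only 0.14 for deviations within groups. The next 2 clusters by p did not pass in the lower direction, at 10428619 (-0.53 ± 0.11, adjusted p = 0.07) and 10459835 (-0.39 ± 0.10, adjusted p = 0.2).

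The count of 11 depended on single arrays. It was 1 without Klf3-null array 2, 3 without Klf3-null array 1 and 6 without Klf3-null array 3. Leaving out wild-type arrays 1 to 4 in turn gave 6, 4, 4 and 7, leaving out Klf8-trap array 2 or doubly mutant array 2 gave 7 each, and leaving out doubly mutant array 4 gave 18. The Klf3-null calls of 10510505 and 10487453 were each lost without 12 of the 15 arrays, with adjusted p up to 0.239 and 0.255, and that of 10350742 without 11, up to 0.236. Those of 10472860 and 10510814 were lost without Klf3-null array 1 (0.0761 and 0.0807) or 2 (0.0663 and 0.0949), that of 10340919 without Klf3-null array 1 (0.0565), and that of 10424437 without Klf3-null array 2 (0.0527). For 10339753 the call against wild type was lost without wild-type array 2 or 3 or Klf3-null array 2 or 3 (up to 0.0898), and the one against doubly mutant arrays without any of the 3 Klf3-null arrays (0.066, 0.149 and 0.166) or doubly mutant array 3 (0.0594). With embryo sex in the model 5 clusters were called, all higher. The differences of 10350742, 10510505, 10339753 and 10487453 were then 1.43, 1.03, -1.88 and -0.61, about as large as before, and their adjusted p was 0.129, 0.127, 0.0656 and 0.0812. With the macrophage mean as a covariate 10350742, 10510505 and 10487453 differed by 1.26, 0.90 and -0.54 and did not pass (0.087, 0.105 and 0.0983), and with only Klf3-null and wild-type arrays in the fit 10510505, 10339753 and 10487453 did not pass (0.0691, 0.0801 and 0.111). For 10339753 the call between doubly mutant and Klf3-null arrays was also lost with the macrophage mean (difference 2.44, adjusted p = 0.129) and with only those groups in the fit (0.281).

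Unnamed clusters lower in doubly mutant arrays outnumbered those higher. Against wild type 90 of 4744 (1.9%) passed, 26 higher and 64 lower, against a background of 1.79% over all clusters and 3.52% over the symbol clusters with a mean of 6.3 or more. The total is thus near the background. By direction 0.875% of all clusters were higher and 0.914% lower, and of those symbol clusters 1.78% were higher and 1.74% lower. The lower calls lay mostly in the lower-ID set, with 54 of its 2947 clusters lower and 11 higher, whereas the higher-ID set had 10 lower and 15 higher. The 64 lower clusters differed by -0.31 to -1.86 with a median of -0.88, and the 26 higher ones by 0.35 to 1.95 with a median of 0.73. The median over all unnamed clusters was 0.01. All group means reached 6.3 in 20 of the 26 and 55 of the 64. The arrays of the groups did not overlap in 63 of the 64 and 24 of the 26, as in 315 of the 325 lower and 307 of the 311 higher calls over all clusters.

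**Figure D3:**
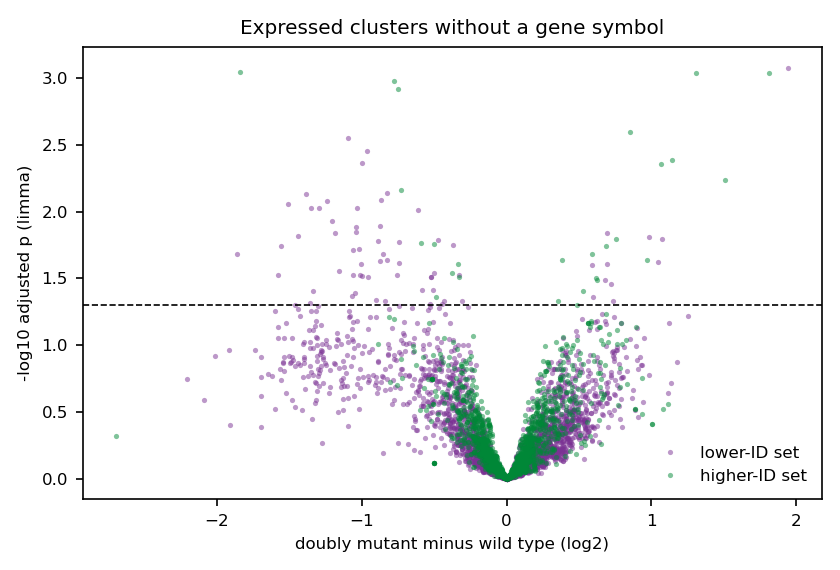
Each point is 1 of the 4744 unnamed clusters, with the doubly mutant minus wild-type difference on the log2 scale (horizontal axis) and minus log10 of the adjusted p from limma (vertical axis), purple for the lower-ID set and green for the higher-ID set. Above the dashed line at an adjusted p of 0.05 lie 64 clusters to the left of 0, of which 54 are purple, and 26 to the right.

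Of the 6 largest rises 5 are given above, and the other was 10338068 in the lower-ID set. It gave 5.82, 6.86, 6.33 and 6.24 in wild-type, 6.70, 6.89 and 6.46 in Klf3-null, and 7.49, 7.50, 7.55 and 7.0 in doubly mutant arrays. Doubly mutant arrays were above wild type without overlap, by 1.07 ± 0.21 (2.10-fold, adjusted p = 0.0161, limma), while Klf3-null and wild-type arrays overlapped. The call was lost without wild-type array 1 or 3 or doubly mutant array 3 (adjusted p = 0.0507, 0.0521 and 0.0561).

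The largest fall was that of cluster 10342237, in the lower-ID set. It gave 10.88, 11.37, 11.27 and 11.31 in wild-type arrays, 11.13, 10.89, 10.75 and 10.75 in Klf8-trap arrays, 10.80, 10.72 and 10.34 in Klf3-null arrays, and 10.36, 9.86, 9.29 and 7.86 in doubly mutant arrays. Doubly mutant arrays were below wild type without overlap, and array 4 was the lowest by over 1 unit. The difference was -1.86 ± 0.38 (3.64-fold lower, adjusted p = 0.0209, limma). Its signal was most like Ypel4 (r 0.99, 0.96 for deviations), Lpin2, a phosphatidate phosphatase gene (0.97), and Hbq1a, a theta globin gene (0.97). Another 53 unnamed clusters had r of 0.95 or more with it, all in the lower-ID set. The median of these 54 clusters was 11.09 to 11.64 in wild-type arrays, and 11.06, 10.57, 10.09 and 8.81 in doubly mutant arrays 1 to 4, so doubly mutant array 1 lay close to wild type and array 4 lay lowest. Their doubly mutant differences ran from -0.40 to -1.86, a direction that follows from choosing them by their likeness to 10342237.

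Clusters 10341603 and 10340003, both in the lower-ID set, had a like pattern. Cluster 10341603 gave 10.88, 11.43, 11.49 and 11.21 in wild-type and 10.49, 9.95, 9.96 and 8.30 in doubly mutant arrays (difference -1.58 ± 0.34, 2.98-fold lower, adjusted p = 0.0301, limma). Cluster 10340003 gave 10.70, 11.25, 11.04 and 10.92 in wild-type and 10.34, 9.66, 9.46 and 8.67 in doubly mutant arrays (difference -1.44 ± 0.27, 2.72-fold lower, adjusted p = 0.0152). Neither overlapped wild type, and doubly mutant array 4 was lowest in both. The nearest symbol clusters were Lpin2 and the nuclear export receptor gene Xpo7 for 10341603 (r 0.97 and 0.96), and Ranbp10, a tubulin- and Ran-binding protein gene (0.94), for 10340003.

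Cluster 10338690, also in the lower-ID set, gave 8.02, 8.31, 8.48 and 8.0 in wild-type, 7.64, 8.01 and 7.48 in Klf3-null, and 7.43, 7.02, 6.06 and 6.28 in doubly mutant arrays. The doubly mutant arrays lay below all wild-type arrays (difference -1.51 ± 0.26, 2.84-fold lower, adjusted p = 0.00884, limma). Cluster 10343860 gave 7.38, 7.80, 7.86 and 6.92 in wild-type and 6.81, 5.90, 5.22 and 5.81 in doubly mutant arrays. It fell without overlap to a mean under the array medians, so its difference of -1.56 ± 0.31 (adjusted p = 0.0181) carries no fold. The signal of 10338690 had r of 0.90 with the mean of the erythroid markers. Among the 64 lower clusters 31 had r of 0.8 or more with that mean. So did 151 of the 2947 lower-ID (5.12%) and 46 of the 1797 higher-ID unnamed clusters (2.56%), which include the 64, and 6.01% of symbol clusters at 6.3 or more. The 64 were chosen as low in doubly mutant arrays, where the erythroid mean was also lower, so a higher share among them follows in part from that choice. The erythroid mean ranged from 12.53 to 12.73 in wild-type and 12.16 to 12.63 in doubly mutant arrays, and their part in the result was not tested.

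A different pattern was seen for 10448124, in the higher-ID set. It gave 7.83, 7.50, 7.98 and 7.90 in wild-type arrays, 6.98, 7.03, 6.55 and 7.51 in Klf8-trap arrays, 7.20, 7.55 and 6.66 in Klf3-null arrays, and 5.48, 5.84, 6.14 and 6.4 in doubly mutant arrays. The doubly mutant arrays were lowest, with array 1 at the bottom and array 4 at the top of the group. The doubly mutant mean, 5.97, lay under the array medians and the signal limit, so no fold is given. The place of 10448124 here thus depends in part on the groups where it was high. The difference was -1.84 ± 0.24 (adjusted p = 0.000906, limma). Its signal followed the mean of the macrophage markers (r 0.91), and the nearest symbol clusters were Hcls1, a cytoskeletal adaptor gene of blood cells (r 0.94), Tmem26 (0.94) and Cd86, a costimulatory molecule of antigen-presenting cells (0.93). Of the 64 lower clusters, 2 had r of 0.8 or more with the macrophage mean, which was itself lower in doubly mutant arrays. With that mean in the model the difference of 10448124 was -1.0 (adjusted p = 0.0573).

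**Figure D4:**
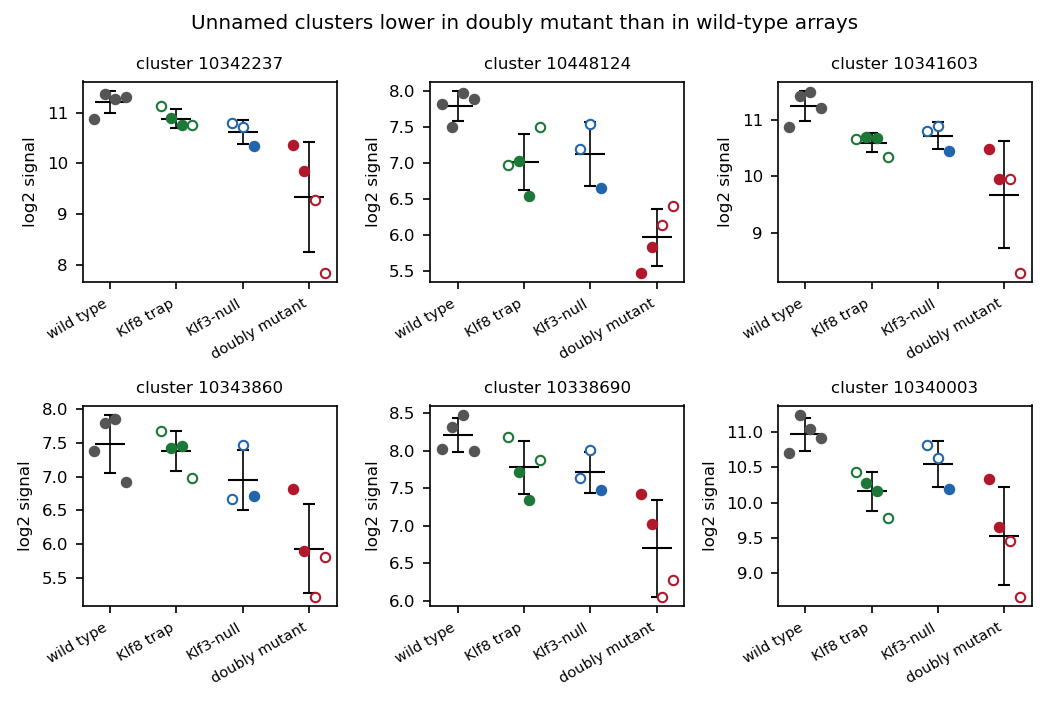
Each panel plots the log2 signal (vertical axis) of 1 unnamed cluster in the 4 genotypes (horizontal axis), with a point for each array, filled for male and open for female, and a bar for the mean ± SD. Doubly mutant points lie below the wild-type points in all 6 panels, spread from 7.86 to 10.36 for cluster 10342237 and from 5.48 to 6.4 for cluster 10448124.

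The doubly mutant counts also moved with single arrays. Where a count under an alternative fit has no share of all clusters beside it, here or for the other comparisons, that share is not given. The movement of such a count is not read as particular to unnamed clusters. The count against wild type was 45, 31 and 27 without wild-type arrays 1, 2 and 3, and 253, 38 and 177 without doubly mutant arrays 1, 3 and 4. Without doubly mutant array 1 and Klf8-trap array 1 together it was 361 (7.61%, against 5.35% of all clusters in that fit), 109 higher and 252 lower. With the macrophage mean as a covariate it was 115, of which 7 were higher and 108 lower, and 8 of the 12 named clusters did not pass. Of these 10340919, 10472860, 10350742, 10424437, 10510505 and 10338068 differed by 1.53, 1.59, 1.01, 1.19, 0.87 and 0.81 (adjusted p from 0.0594 for 10424437 to 0.233 for 10338068), and 10343860 differed by -2.02, more than before (adjusted p = 0.0616). The eighth is 10448124, given above. With embryo sex in the model the count was 57, and 10342237, 10341603 and 10343860 differed by -1.65, -1.39 and -1.42 and did not pass (adjusted p = 0.0658, 0.0941 and 0.0572). With only doubly mutant and wild-type arrays in the fit 14 unnamed clusters passed, among the named ones 10340919, 10472860, 10424437 and 10448124. Calls of 10342237 and 10343860 were lost without wild-type array 2 or 3 or doubly mutant array 3 (up to 0.0712 and 0.0705), that of 10340003 without wild-type array 2 or 3 (up to 0.0596), and that of 10341603 without any of the 4 wild-type arrays or doubly mutant array 3 (up to 0.102).

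Between doubly mutant and Klf8-trap arrays, which differ in Klf3, 85 unnamed clusters (1.79%) passed, 33 higher and 52 lower, against a background of 1.69% over all clusters and 3.13% over symbol clusters with a mean of 6.3 or more. By direction 0.824% of all clusters were higher and 0.863% lower, and of those symbol clusters 1.58% were higher and 1.56% lower. Because some called clusters shared all their values, the 85 stood for 83 distinct rows. The lower-ID set had 8 higher and 37 lower, and the higher-ID set 25 higher and 15 lower. All group means reached 6.3 in 30 of the 33 and 44 of the 52. After quantile normalization the split was 46 higher and 39 lower. The largest rises were 10340919 (1.71 ± 0.25, adjusted p = 0.00261, limma), 10424437 (1.58 ± 0.17, 0.000217), 10350742 (1.57 ± 0.25, 0.00512), 10472860 (1.27 ± 0.23, 0.014), 10450482 and 10510814 (1.13 ± 0.17, 0.00344). Cluster 10450482, the only member of these 6 not named above, gave 7.61, 7.96, 7.59 and 7.91 in Klf8-trap and 9.05, 9.26, 9.40 and 8.32 in doubly mutant arrays. Its groups did not overlap (difference 1.24 ± 0.20, 2.37-fold, adjusted p = 0.00616). Of the 6, 10340919 and 10424437 had Klf8-trap means under the signal limit of 6.3 (5.66 and 6.26), so their place here depends in part on the groups where they were high.

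The 2 largest falls in this comparison followed liver genes. Cluster 10531149 gave 10.52, 10.30, 10.76 and 10.46 in wild-type, 10.63, 11.81, 11.64 and 11.64 in Klf8-trap, 10.26, 10.20 and 10.44 in Klf3-null, and 9.17, 10.58, 9.77 and 9.49 in doubly mutant arrays. Cluster 10506125 gave 9.11, 8.85, 9.24 and 9.24 in wild-type, 9.43, 10.51, 10.21 and 10.41 in Klf8-trap, 9.24, 9.25 and 9.40 in Klf3-null, and 7.61, 9.11, 8.66 and 8.67 in doubly mutant arrays. In both, 3 Klf8-trap arrays were high, Klf8-trap array 1 was nearer to wild type, and doubly mutant array 1 was lowest. The differences were -1.68 ± 0.28 (3.20-fold lower, adjusted p = 0.00716, limma) and -1.63 ± 0.28 (3.10-fold lower, adjusted p = 0.0079). Neither call held with the macrophage mean as a covariate (-1.5 and -1.19, adjusted p = 0.0992 and 0.137) or with only these groups in the fit (0.117 and 0.128). The signal of 10531149 was most like F13b, a coagulation factor subunit made in liver (r 0.97), and that of 10506125 most like C8b, a complement gene (0.99), Apoh, an apolipoprotein gene (0.98), and Fabp1, the liver fatty acid-binding protein gene (0.98). Hepatocyte marker means ranged from 12.42 to 13.05 in Klf8-trap arrays and from 11.47 to 12.58 in doubly mutant arrays, and their part in the result was not tested.

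The other 4 falls were in the lower-ID set. Cluster 10342031 gave 9.02, 9.71, 9.85 and 9.24 in Klf8-trap and 8.86, 8.16, 7.64 and 6.78 in doubly mutant arrays (difference -1.59 ± 0.36, adjusted p = 0.0416, limma), and its call was lost without 11 of the 15 arrays, with adjusted p up to 0.13, and after quantile normalization (0.0514). Cluster 10343860 differed by -1.45 ± 0.31 (adjusted p = 0.0298) and lost its call without Klf8-trap array 2 or 3 or doubly mutant array 2 or 3 (up to 0.0868). Cluster 10338080 gave 7.49, 6.94, 7.25 and 6.70 in Klf8-trap and 6.36, 5.59, 5.33 and 5.75 in doubly mutant arrays (difference -1.34 ± 0.21, adjusted p = 0.00561). In all of these the doubly mutant arrays were below the Klf8-trap arrays without overlap. The doubly mutant means of 10343860 and 10338080, 5.93 and 5.76, lay under the array medians and the signal limit, so both carry no fold. Their place here depends in part on the groups where they were high. Cluster 10340753 differed by -1.22 ± 0.24 (adjusted p = 0.0185) and lost its call without Klf8-trap array 4 (0.0634) or doubly mutant array 3 (0.0601). The count of 85 was 181, 33, 41 and 34 without Klf8-trap arrays 1 to 4, 54 without Klf3-null array 2, 51, 43 and 245 without doubly mutant arrays 2, 3 and 4, 132 without both arrays that stood apart (2.78%, against 2.46% of all clusters in that fit), 38 with the macrophage mean as a covariate and 7 with only these groups in the fit. With the macrophage mean the other named calls that were lost were those of 10340919, 10350742, 10472860, 10450482, 10510814, 10343860 and 10340753, with differences of 1.42, 1.22, 1.11, 0.99, 0.84, -1.77 and -1.27 and adjusted p from 0.0661 for 10340919 to 0.16 for 10472860. With only these groups in the fit 10340919 and 10424437 were the named clusters that passed.

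No unnamed cluster was called between Klf8-trap and wild-type arrays with all arrays in the fit, where the background was also 0%. The smallest adjusted p was 0.175 (limma), while 731 unnamed clusters (15.4%) had an unadjusted p under 0.05, against 12.6% of all clusters. The clusters with the smallest p were 10339367 and 10344446 upward and 10343476 and 10582556 downward. Cluster 10339367 gave 6.08, 5.56, 5.40 and 5.82 in wild-type and 6.47, 6.84, 6.97 and 7.18 in Klf8-trap arrays. Cluster 10344446 gave 6.44, 5.96, 6.33 and 6.21 in wild-type and 7.13, 7.19, 7.08 and 7.01 in Klf8-trap arrays. In both, no Klf8-trap array overlapped wild type, with differences of 1.15 ± 0.20 and 0.87 (adjusted p = 0.175 and 0.193). Their wild-type means, 5.71 and 6.24, lay under the signal limit of 6.3, so their place here depends in part on the groups where they were high. Cluster 10582556, which shares its values with 5 other unnamed clusters, gave 7.83, 8.13, 7.70 and 7.73 in wild-type and 7.35, 6.94, 6.87 and 6.82 in Klf8-trap arrays (difference -0.85, adjusted p = 0.221). Cluster 10343476 gave 8.96, 9.22, 8.58 and 8.93 in wild-type and 8.58, 7.91, 7.97 and 7.52 in Klf8-trap arrays, where array 1 reached the lowest wild-type array (difference -0.92, adjusted p = 0.221).

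The absence of calls rested on Klf8-trap array 1. Without it 246 unnamed clusters passed (5.19%, against 3.83% of all clusters and 4.59% of symbol clusters with a mean of 6.3 or more in that fit). Without it and doubly mutant array 1 together 469 passed (9.89%, against 8.19% and 12%), 236 higher and 233 lower. In the latter fit 10339367 differed by 1.28 (adjusted p = 0.00595, limma), 10344446 by 0.86 (0.00853), 10343476 by -1.12 (0.00311) and 10582556 by -0.97 (0.00391). With the macrophage mean as a covariate 7 unnamed clusters passed, including 10582556 (difference -1.01, adjusted p = 0.0385). Hepatocyte and megakaryocyte means were 12.4 and 9.07 on Klf8-trap array 1. They were 12.9 to 13 and 10.3 to 10.9 on the other Klf8-trap arrays, and 12.13 to 12.48 and 9.47 to 9.77 in wild-type arrays. The clusters 10339367, 10344446, 10343476 and 10582556 had r of 0.59, 0.55, -0.61 and -0.75 with the hepatocyte mean. The part of these signals in the counts was not tested.

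Cluster 10339753, described above, was the only unnamed cluster called between doubly mutant and Klf3-null arrays (0.0211%, against a background of 0.0169% over all clusters, all of it higher, and 0.0305% over symbol clusters with a mean of 6.3 or more), and 687 (14.5%) had an unadjusted p under 0.05, against 11% of all clusters. Among those not past the threshold, 10347222 gave 9.82, 9.69 and 10.06 in Klf3-null and 10.53, 10.69, 11.15 and 10.46 in doubly mutant arrays (difference 0.85 ± 0.16, adjusted p = 0.171, limma). Cluster 10342447 differed by 0.72 ± 0.14 (0.171), 10340654 by -0.41 ± 0.07 (0.144) and 10343801 by -0.60 ± 0.12 (0.18). None of these 4 overlapped between the groups. The count was 65 without doubly mutant array 4, 9 without doubly mutant array 1, and 0 without doubly mutant array 3 or any Klf3-null array. Leaving out both arrays that stood apart gave 20 (0.422%, against 0.191% of all clusters), and 10343801 passed (-0.67, adjusted p = 0.0233).

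The interaction asks whether the doubly mutant difference departs from the sum of both single differences. No unnamed cluster passed (background 0%), with a smallest adjusted p of 0.16 (limma) and 712 unnamed clusters (15%) at an unadjusted p under 0.05, against 12.3% of all clusters. Cluster 10526085 gave 7.14, 7.46, 7.16 and 7.80 in wild-type, 6.89, 7.06, 6.85 and 6.97 in Klf8-trap, 7.25, 6.85 and 7.05 in Klf3-null, and 8.07, 7.77, 8.13 and 7.60 in doubly mutant arrays. Its highest values were in doubly mutant arrays, which overlapped wild type but neither single mutant, with an interaction of 1.29 ± 0.23 (adjusted p = 0.16). Its signal was most like Snord15b, a small nucleolar RNA (r 0.98, 0.96 for deviations), and Rmrp, the RNA component of RNase MRP (0.94). Cluster 10347222 had an interaction of 1.19 ± 0.22 (adjusted p = 0.16) and was also most like Snord15b (r 0.94). Cluster 10594812 gave 8.92, 9.93, 9.69 and 9.69 in Klf8-trap and 7.68, 8.70, 8.41 and 8.80 in doubly mutant arrays, with an interaction of -1.84 ± 0.35 (adjusted p = 0.16). It had r of 0.98 with Masp2, a complement protease gene expressed in liver, and 0.89 with the hepatocyte mean, whose part in the result was not tested. Cluster 10340654 had an interaction of -0.57 ± 0.10 (adjusted p = 0.16). The count was 54 without Klf8-trap array 1, 45 without doubly mutant array 4 and 51 without both arrays that stood apart (1.08%, against 1.04% of all clusters), where these 4 clusters passed (adjusted p from 0.00587 for 10594812 to 0.0456 for 10526085).

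The 5 unnamed clusters with the widest spread within genotypes were not called in any comparison. Cluster 10608138, in the higher-ID set, had a residual SD of 2.69. It gave 9.80 to 10.12 on the 9 male arrays and 4.27 to 4.96 on the 6 female arrays, with no value between. Its nearest symbol clusters were the Y-linked genes Eif2s3y, a translation initiation factor subunit, and Uty, a histone demethylase relative (both r 1.0). It was the only unnamed cluster with r of -0.9 or lower to Xist, and none had r of 0.9 or higher. All 4 wild-type arrays were male, so for this cluster sex and genotype overlap in comparisons with wild type.

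The next 4 by spread, 10339813, 10338577, 10340887 and 10338259, were all in the lower-ID set and were low on Klf8-trap array 3. There they gave 3.87, 4.68, 5.16 and 3.71. On the other 3 Klf8-trap arrays 10339813 gave 9.97, 8.66 and 8.76, so that single array lay far under its group. Doubly mutant arrays 3 and 4 were also lower, at 6.72 and 6.48 for 10339813 against 9.57 and 8.99 on arrays 1 and 2. Wild-type arrays did not overlap Klf3-null arrays for 10339813 and 10338577, doubly mutant arrays for 10338577 and 10338259, or Klf8-trap arrays for 10338259. In the other comparisons of these clusters with wild type the arrays overlapped. In all, 13 unnamed clusters lay more than 2 log2 units under their group mean on Klf8-trap array 3. Of these, 7 were in the lower-ID set and had a median pairwise r of 0.961 over the 15 arrays (lowest 0.765). The other 6, including 10417599, were 1 set of identical rows with a value of 4.5 there. Doubly mutant array 4 held 15 clusters as far under their group mean, 14 of them in the lower-ID set, and no other array held more than 2. Its root mean square deviation from the group means in the lower-ID set was 0.479, the largest of all arrays. Doubly mutant array 1 and Klf8-trap array 1 had 0.371 and 0.398. In the higher-ID set these arrays had 0.282, 0.265 and 0.296, in the same order. The fit without both arrays that stood apart keeps doubly mutant array 4.

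**Figure D5:**
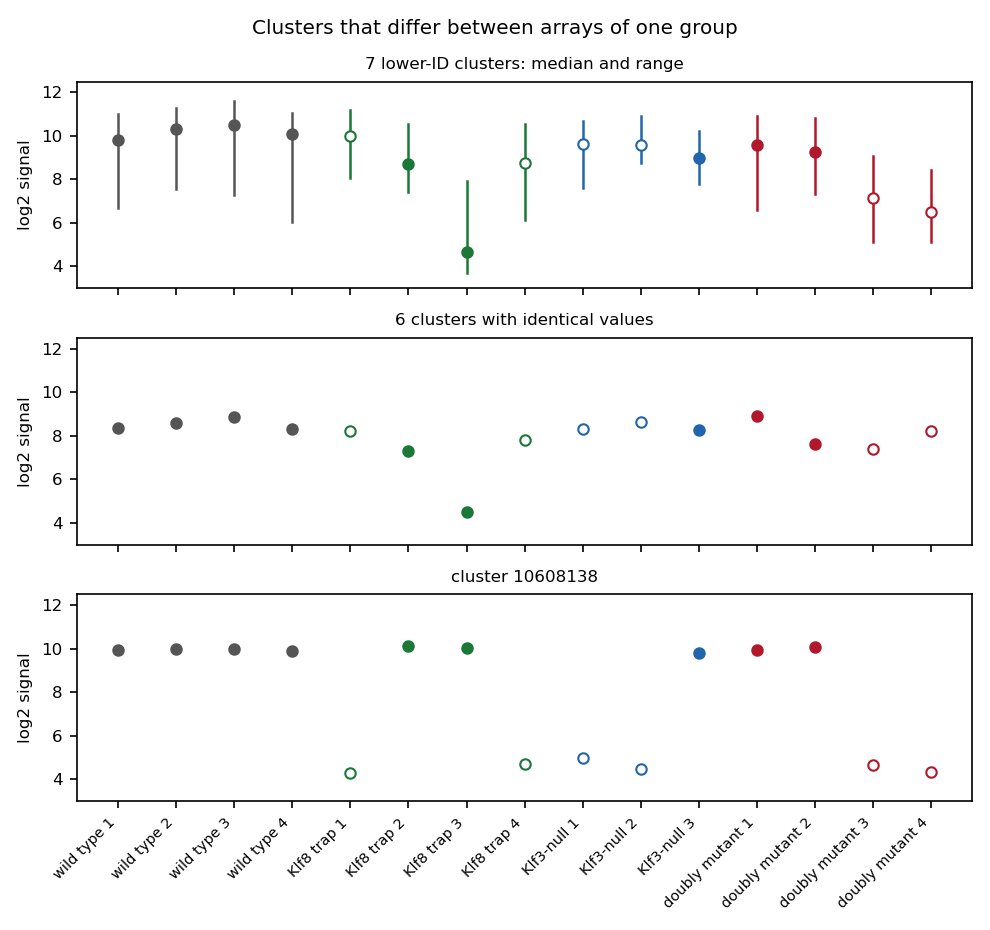
The panels plot log2 signal (vertical axis) on each of the 15 arrays (horizontal axis), filled for male and open for female, for 7 lower-ID clusters (point for the median, line for the range), for the 6 clusters with identical values, and for cluster 10608138. Klf8-trap array 3 is lowest in the upper panels, with a median of 4.68 and a value of 4.5, and cluster 10608138 separates male from female arrays.

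Large differences were more frequent among unnamed clusters than over all clusters, and most of them were not called. A difference of at least 1 between doubly mutant and wild-type arrays was seen in 183 unnamed clusters (3.86%), of which 34 (18.6%) were called. Over all clusters it was seen in 446 (1.25%), of which 45.1% were called. Between doubly mutant and Klf8-trap arrays it was seen in 68, of which 18 (26.5%) were called, against 59.9% of 312 over all clusters. Between Klf3-null and wild-type arrays it was seen in 31, of which 6 (19.4%) were called, against 33.2% of 199. In the other comparisons 0 of 47 (Klf8-trap against wild type) and 1 of 57 (doubly mutant against Klf3-null) were called, against 0 of 208 and 4 of 168 over all clusters. The lower-ID set, with its larger residual SD, was not counted apart here.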

How the data were processed

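TER119+ cells of E13.5 fetal liver were profiled on 15 Affymetrix arrays. Each array holds a deposited log2 signal for every transcript cluster, made with RMA and Partek per the submitters' processing notes, which give no version. The genome build was not stated (not given in the sources used here). All columns were used (0 left out).

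Groups were taken from the sample titles. All 35556 clusters were fitted with limma 3.58.1 (lmFit and eBayes, prior df 2.93, residual df 11) in R 4.3.3, using a mean for each genotype. Tests were two-sided, with Benjamini-Hochberg adjustment over all clusters and a threshold of 0.05. The procedure was tested on simulated data. No detection call exists, so no fold is given where a compared group mean lies under 6.28, the lowest array median. RMA values compress differences near the lower end of the signal, and the number of arrays limits the precision.

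The rule for unnamed clusters was no symbol in the platform annotation and a mean of 6.3 or more. In each comparison and direction the text names the 6 largest differences that passed with non-overlapping arrays. With under 3 of them, it names the 2 smallest p as not past it. It also names the 5 highest means, the 5 largest residual SDs and 3 clusters on each side of the limit. The 54 clusters around 10342237, those low on Klf8-trap array 3 and the largest sets of identical rows were picked once their values were known. The members, lists and alternatives were chosen with earlier results of these data known. Marker lists covered erythroid, macrophage, hepatocyte, megakaryocyte, myeloid, stromal, endothelial, and lymphoid and mast cells.

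Replicate numbers pair no comparison over all clusters tested. Deviations of same-numbered doubly mutant and Klf8-trap arrays correlated at 0.419, -0.007, 0.129 and 0.0318 over all clusters, and at 0.114 to 0.534 over clusters with a symbol. The highest values, 0.419 and 0.534, were between the arrays numbered 1, which are both arrays that stood apart. Alternatives covered variance trend, filter, quantile normalization, replicate block, embryo sex, macrophage signal, arrays in the fit, left-out arrays, a limit of 7 and the lower-ID set. No sequence or coordinates of the clusters were used here.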

Additional observations from a re-analysis of the deposited data

Results flagged for a closer look

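Among the clusters named in the text, 129 combinations of a cluster and a group of 4 arrays were examined for an array far from the other 3. In 6 the gap to the nearest array exceeded 0.83 of the group's range, the level that chance passes in about 1 in 20 groups. A count of 6 in 129 is near that share, so the 6 are listed only as a description. Klf8-trap array 1 stood high for 10340919 (5.90 against 5.56 to 5.6, gap 0.90 of the range) and low for 10531149 (10.63 against 11.64 to 11.81, gap 0.85). Klf8-trap array 4 stood low for 10341603 (10.35 against 10.67 to 10.69, gap 0.93) and for 10608690 (14.67 against 14.70, gap 0.88). Doubly mutant array 4 stood low for 10338068 (7.0 against 7.49 to 7.55, gap 0.89) and for 10598036 (14.24 against 14.44 to 14.47, gap 0.88).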

How the results depend on the processing

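Counts of called unnamed clusters are given in the order Klf3-null, doubly mutant and Klf8-trap against wild type, doubly mutant against Klf3-null, doubly mutant against Klf8-trap, and interaction. They were 11, 90, 0, 1, 85 and 0. Leaving out 1 array at a time gave 1 to 18, 27 to 253, 0 to 246, 0 to 65, 33 to 245 and 0 to 54. The shares of all clusters under these alternatives are not given here, so movements are not read as particular to unnamed clusters. The following are the counts that moved by over 1.5 times. A variance trend gave 2 for doubly mutant against Klf3-null. Testing only clusters with a mean of 6.3 or more gave 167 for doubly mutant against wild type and 157 against Klf8-trap. Sex as a covariate gave 5 for Klf3-null and 57 for doubly mutant against wild type. The macrophage mean as a covariate gave 7 for Klf8-trap against wild type, and 0 and 38 for doubly mutant against Klf3-null and Klf8-trap. With only the compared groups in the fit, which leaves fewer arrays, Klf3-null against wild type gave 22, and doubly mutant against wild type, Klf3-null and Klf8-trap gave 14, 0 and 7. Without both arrays that stood apart, all counts but the first moved, to 361, 469, 20, 132 and 51. Without the lower-ID set, the doubly mutant counts against wild type, Klf3-null and Klf8-trap were 25, 0 and 40. Beyond these constructions the cause was not tested. Quantile normalization and a limit of 7 moved no count by that much. The replicate block gave 6, 112, 0, 0, 68 and 0, and the numbers do not pair the samples over all clusters tested. Doubly mutant and Klf8-trap arrays correlate by number over symbol clusters, and in that comparison the block ended 1 named call, that of 10342031 (-1.59, adjusted p = 0.0533). Of 1077 differences of named clusters under alternatives, 908 kept their side of the threshold, 142 no longer passed, 27 newly passed and 0 reversed. Signal without a detection call limits what can be said of clusters near or under the array medians.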
